A study of Homo sapiens with 2 samples.

Results

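Dystroglycan (DAG1), its glycosylation enzymes POMT1, POMT2 and POMGNT1, and its partners SGCB, SGCE and UTRN were described in Tu212 cells with and without overexpression of the arginine methyltransferase PRMT5. These 7 genes were taken by symbol from a table of 58302 gene rows, and each stood on a single row. The set was chosen by name with the read counts of these same libraries known, the high ratio of DAG1 among them, so the ratios given are descriptions and were not tested. Tu212 is an established human line from a head and neck squamous cell cancer. The control cells received the empty pEZ vector and the other cells received pEZ-PRMT5, each for 48 h, and polyadenylated RNA of each group was sequenced as 1 library. Whether the cells were pooled or drawn as a clone, and which promoter drove PRMT5, is not stated in the sources used. With 1 library per group no difference has a replicate check, and every value describes these libraries and not the condition. Gene counts summed to 14119997 reads in the control library and 19908258 in the library with PRMT5, 1.41 times as many. PRMT5 itself had 2068 and 5770 reads, a log2 ratio of 1.01. Where a pair of values is given, the vector control comes first.

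Dystroglycan is made as a single precursor that is cut into an extracellular alpha subunit and a transmembrane beta subunit. Enzymes of the endoplasmic reticulum and Golgi attach O-mannose glycans to the alpha subunit, and these glycans bind laminins, agrin and perlecan in the basement membrane. The beta subunit is tied to actin through dystrophin in muscle or its relative utrophin in many other cells, and sarcoglycans stabilise the complex in muscle. In epithelia dystroglycan is one of several laminin receptors, beside the integrins.

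The promoter windows of the gene with the highest ratio (DAG1), of the next highest (POMGNT1) and of the lowest (SGCB) are shown because these members stand at the ends of the order of ratios. Each window runs from 250 bases before to 50 bases after a RefSeq gene start in GRCh38.p14, is written on the gene's strand, and has the GC box GGGCGG or its reverse complement CCGCCC in capitals. The windows are chr3:49469882-49470181 on the plus strand for DAG1, chr1:46198385-46198684 on the minus strand for POMGNT1 and chr4:52038250-52038549 on the minus strand for SGCB.
DAG1: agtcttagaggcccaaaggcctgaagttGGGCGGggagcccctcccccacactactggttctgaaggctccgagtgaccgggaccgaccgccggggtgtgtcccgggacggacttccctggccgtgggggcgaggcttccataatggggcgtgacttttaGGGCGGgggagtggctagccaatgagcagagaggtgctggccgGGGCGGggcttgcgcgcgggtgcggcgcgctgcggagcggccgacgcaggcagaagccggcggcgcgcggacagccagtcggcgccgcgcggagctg
POMGNT1: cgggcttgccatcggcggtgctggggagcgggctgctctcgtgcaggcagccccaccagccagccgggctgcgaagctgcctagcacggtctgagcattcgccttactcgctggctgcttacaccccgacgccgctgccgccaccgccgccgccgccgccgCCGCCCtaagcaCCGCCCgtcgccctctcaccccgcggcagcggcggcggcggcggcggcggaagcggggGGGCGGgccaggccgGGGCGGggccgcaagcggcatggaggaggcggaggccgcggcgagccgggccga
SGCB: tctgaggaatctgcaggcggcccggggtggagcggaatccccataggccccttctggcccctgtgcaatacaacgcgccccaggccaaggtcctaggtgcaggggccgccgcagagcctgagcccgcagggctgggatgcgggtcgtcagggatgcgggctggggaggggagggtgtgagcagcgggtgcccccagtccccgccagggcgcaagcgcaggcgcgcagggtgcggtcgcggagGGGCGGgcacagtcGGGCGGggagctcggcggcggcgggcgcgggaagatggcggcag

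Each is the first RefSeq start of its gene in the table. The DAG1 window held 3 GC boxes, the POMGNT1 window 4 and the SGCB window 2. At least 1 such box was found in 45% of all 35116 windows of the RefSeq table, and 15.8% held as many as DAG1. The POMT1, POMT2 and first UTRN windows each held 1 box, and the 6 members matched were all but SGCE. CpG dinucleotides numbered 34 in the DAG1 window, 45 in POMGNT1 and 30 in SGCB, against a median of 14 over all windows. RefSeq lists a second start for DAG1 and for POMGNT1, and these windows differ. The second DAG1 window held 47 CpG, 4 GC boxes and 2 CCAAT boxes, while the second POMGNT1 window held 6 CpG, 0 GC boxes and 1 TATA box. The E-box CACGTG was found in 0 of these 3 windows and in 7.26% of all windows, and the TATA box (TATAAA or TTTATA) in 0 of the 3 and in 11.5% of all. No motif searched contains another. The CCAAT box (CCAAT or ATTGG) was found once in the DAG1 window, in neither of the other windows shown, and in 34.6% of all windows. The DAG1 window ends just past the start used by 6 of the gene's 22 transcripts in GENCODE release 29, which begin at 16 positions in all. At the exact RefSeq starts of the POMGNT1 and SGCB windows, 0 of 10 and 0 of 3 transcripts begin, and the POMGNT1 start lies well inside the span of that gene. The counts are per gene, so reads of different starts could not be told apart.

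DAG1 was far higher in the PRMT5 overexpression library. It had 282 reads in the vector control and 2868 in PRMT5 overexpression, which is 19.8 against 145 CPM (counts scaled to a common library size by the trimmed mean of M values, TMM). The log2 ratio of PRMT5 overexpression over vector control was 2.88 (2.70 to 3.06), or 7.34-fold. The range in parentheses after a log2 ratio is its exact binomial 95% interval, here and throughout. It covers counting error only and treats reads as independent draws, so it is too narrow where reads are not independent molecules. In bulk RNA, fewer cells of a type and less RNA per cell cannot be told apart. A gain of 126 CPM or more was seen in 46 of 11716 protein-coding genes with a mean of at least 50 reads, DAG1 included. In ratio, 4 of those genes stood at or above DAG1, again counting DAG1 itself.

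**Figure D1:**
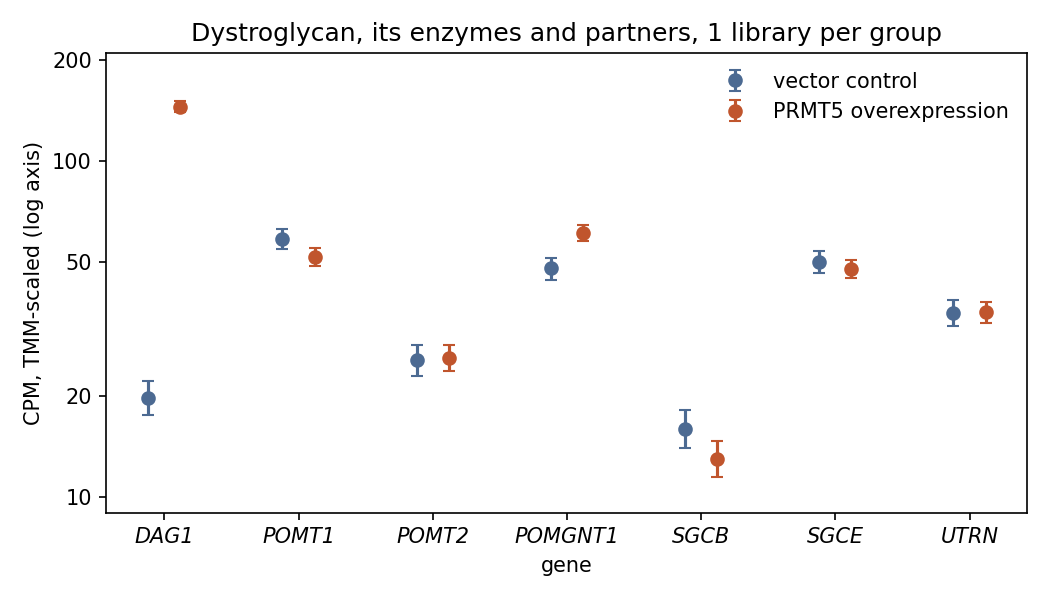
CPM of the 7 genes (log axis) in the vector control and the PRMT5 overexpression library, 1 library per group, with exact 95% Poisson intervals for counting error. DAG1 goes from 19.8 to 145 CPM, while the other genes lie between 13.0 and 61.2 CPM in both libraries.

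All 7 genes passed a floor of 10 reads in 1 library or both. DAG1 was the only one of them at 2-fold or more above the vector control, and 0 stood 2-fold below it. The same floor left 17777 genes of the whole table, of which 2.9% were 2-fold higher and 1.94% were 2-fold lower. At 1.5-fold the shares were 7.06% and 5.33%, and the count of members stayed at 1 higher and 0 lower. Where the mean of both libraries reached 50 reads, the shares over 13282 genes were 0.798% and 0.806% at 2-fold, and 2.7% and 2.42% at 1.5-fold. The median log2 ratio of the 7 genes was 0.0068, beside 0.0022 over all genes. Because the members were chosen with these ratios known, nothing is read from that count.

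**Figure D2:**
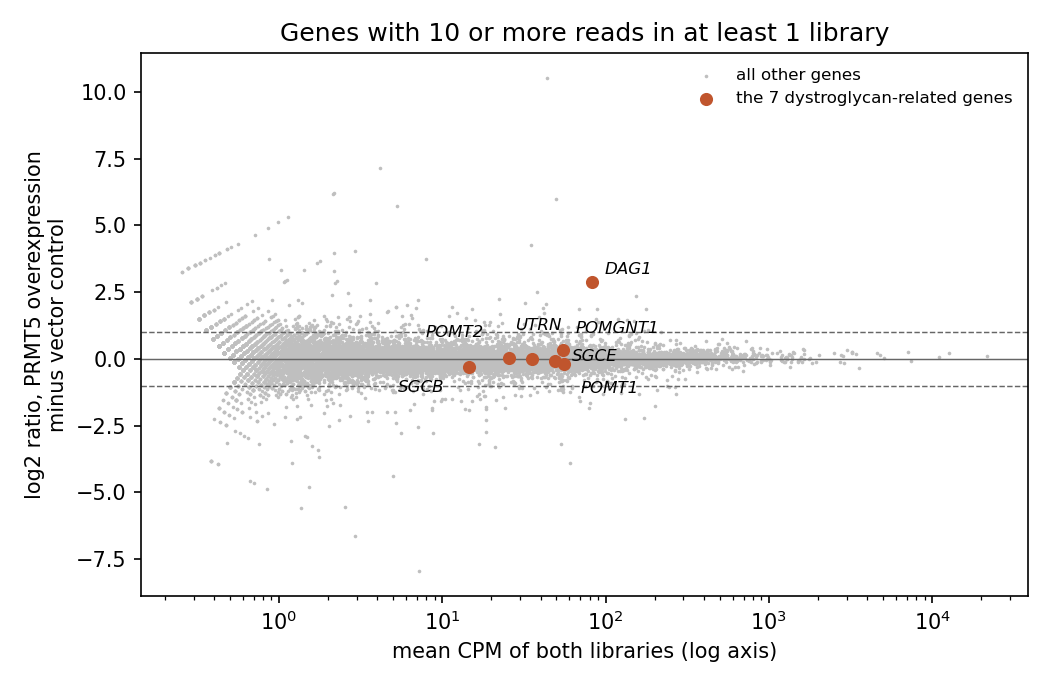
Log2 ratio (PRMT5 overexpression minus vector control, prior count of 1) against mean CPM (log axis) for the 17777 genes past the floor of 10 reads; dashed lines mark 2-fold, and genes with 0 reads in a library owe their position to the prior count. DAG1 stands at 2.88, and the other 6 dystroglycan-related genes lie between -0.29 and 0.35.

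DAG1 (ENSG00000173402) lies on the plus strand of chromosome 3 from 49468703 to 49535618 in GRCh38, and the table and GENCODE release 29 give the same span. Its merged exons cover 6923 bases and share no base with another counted gene. Of 578 stretches of 50 bases taken along its longest transcript, 0 occur in a transcript of another gene. The nearest counted genes were NICN1, which lies 39377 bases towards lower coordinates with 53 and 99 reads, and the divergent transcript BSN-DT, 13688 bases towards higher coordinates with 11 and 16 reads. NICN1 was at 0.43 (-0.061 to 0.94) and BSN-DT at 0.068 (-1.12 to 1.33). The reads of NICN1 are uncertain because it shares exon bases with AC104452.1, and the sum of both had a log2 ratio of -0.047.

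Within 250 kb of DAG1 on either side stood 16 other counted genes, and 0 of them differed by 1.5-fold. Of all 17777 counted genes, 7.06% were 1.5-fold higher and 5.33% lower, so nothing particular to this region is read from 0 of 16. The log2 ratios of these 16 genes ran from -0.44 for MST1, which encodes macrophage stimulating protein, to 0.56 for AMIGO3. The intervals of MST1 and AMIGO3 both included 0. Both genes share exon bases with other counted genes, and the sums were at 0.039 and 0.041. MST1 had 80 and 81 reads and AMIGO3 38 and 78, beside 747 and 1107 for RNF123, which enters both sums. The sums therefore mostly follow the partners and say little about either gene. This window was set, and MST1 and AMIGO3 were named, after the values were seen. One gene of the dystroglycan glycan pathway lies in it. GMPPB, a subunit of the enzyme that makes GDP-mannose, was at -0.083 from 581 and 758 reads, and shares exon bases with AMIGO3 and RNF123. It too was named after its values were seen.

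**Figure D3:**
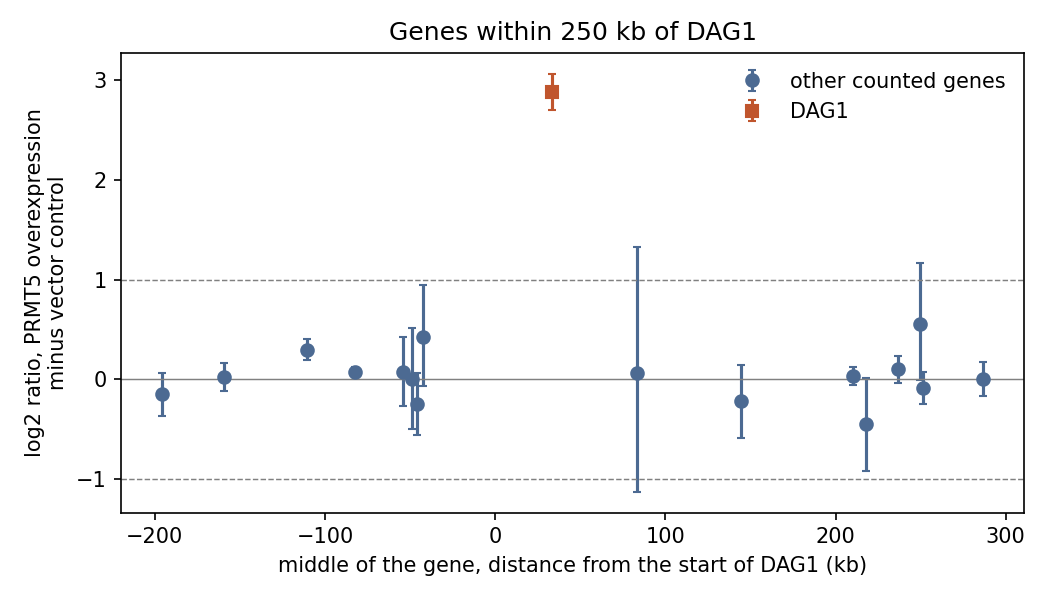
Log2 ratio with its 95% counting interval for DAG1 and the 16 other genes with 10 or more reads within 250 kb of it, placed by the distance of the gene's middle from the start of DAG1; dashed lines mark 2-fold. The other genes lie between -0.44 and 0.56, and DAG1 stands alone at 2.88.

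The 5 protein-coding genes with the ratios closest to that of DAG1, among those that average at least 50 reads, were YJEFN3, RAB43, ZNF664, AIF1L and ZNF778. With 2 libraries, likeness means only a similar ratio. YJEFN3, with 13 and 137 reads, was at 2.85 and at 0.40 once summed with the genes that share its exon bases. RAB43 was at 2.51 and at 1.33 in such a sum, and 41.4% of its stretches of 50 bases occur in other genes, so both genes are uncertain. ZNF664 was at 2.35, and at 2.23 with CCDC92, whose exons it shares. AIF1L, an actin-bundling protein related to allograft inflammatory factor, was at 2.26 and the zinc finger gene ZNF778 at 2.19, with no exon base shared with a counted gene. DAG1 had more reads in the PRMT5 overexpression library than any of these genes except ZNF664, which had 5059.

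The 2 subunits of the protein O-mannosyltransferase, the enzyme that adds the first mannose in the endoplasmic reticulum, were close to level. POMT1 (ENSG00000130714, chromosome 9 from 131502902 to 131523806) had 836 and 1026 reads, or 58.6 and 52.0 CPM. The log2 ratio of -0.17 (-0.30 to -0.038) lay below 0. Its partner POMT2 (ENSG00000009830, chromosome 14 from 77274956 to 77320884) had 364 and 513 reads, or 25.5 and 26.0 CPM. At 0.028 (-0.17 to 0.23), the interval of its log2 ratio included 0. The exons of POMT1 share 6 bases with UCK1 and those of POMT2 share 1 base with GSTZ1. Sums with these neighbours gave -0.15 and -0.0092.

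POMGNT1, which extends the O-mannose with N-acetylglucosamine, was the only enzyme among the members with an interval above 0. It had 684 and 1207 reads, or 48.0 and 61.2 CPM, and a log2 ratio of 0.35 (0.22 to 0.49). This is 1.28-fold, against 7.34-fold for DAG1. A ratio as high as this was held by 879 of the 13282 genes that average at least 50 reads, POMGNT1 included. The gene (ENSG00000085998) lies on chromosome 1 from 46188682 to 46220305 and shares 601 exon bases with LURAP1, which had 9 and 13 reads. The sum with LURAP1 left the log2 ratio at 0.35.

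The other enzymes that build the O-mannose glycans were read from a list of 14 genes. All 14 were past the floor, 5 were above 0 and 9 below, and the median was -0.049. The list covers POMGNT2, B3GALNT2 and POMK of the core that carries the laminin-binding glycan, RXYLT1 and B4GAT1 of the linker, and LARGE2, which polymerises the laminin-binding chain. B4GAT1, which primes that chain, was at 0.40 (0.13 to 0.67) from 179 and 327 reads. Its interval was the only one on this list that did not include 0. MGAT5B, with 15 and 10 reads, was lowest at -0.97 (-2.37 to 0.20), and was the only list member past 1.5-fold. B4GAT1 and MGAT5B were named after their values were seen.

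LARGE2 had 808 reads in the vector control and 1175 in PRMT5 overexpression, and a log2 ratio of 0.073 (-0.057 to 0.20). As RPKM (reads per kb of exon, scaled by the library total) over merged exons, LARGE2 stood at 18.4 and 18.9. The gene of the list with the most reads, the galactosyltransferase B4GALT1, was at -0.031 from 895 and 1211 reads.

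Genes that supply the mannose donor, dolichol phosphate mannose, and its precursors had a median log2 ratio of 0.021. All 13 were counted, 7 above 0 and 6 below, and 0 reached 1.5-fold. The shares among all genes that average at least 50 reads were 2.7% higher and 2.42% lower, so nothing is read from 0 of 13. MPI, the phosphomannose isomerase that feeds the path, had 1560 and 2004 reads and was at -0.11. It shares exon bases with FAM219B, and the ratio of the sum was -0.10. NUS1, a subunit of the dolichol-making prenyltransferase, was at 0.14 from 1343 and 2041 reads, although 14.5% of its stretches of 50 bases occur in other genes. The summed level of the 13 genes was 582 CPM with the vector and 581 CPM in PRMT5 overexpression.

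The other protein O-mannosyltransferases, which act on cadherins and plexins and not on dystroglycan, were also spread around 0. The 5 genes had a median of -0.016, with 2 above and 3 below 0. TMTC3 and TMTC1, which had the most reads, were at -0.11 and 0.096. TMTC2 was highest, at 0.50 (0.23 to 0.78), and TMEM260 lowest, at -0.42 (-0.64 to -0.21). The last pair was named after the values were seen.

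Beta-sarcoglycan (SGCB), a member of the complex in muscle and other tissues, had the lowest ratio of the 7 genes. It had 228 and 257 reads, or 15.99 and 13.0 CPM. The log2 ratio was -0.29 (-0.56 to -0.031). SGCB (ENSG00000163069) lies on chromosome 4 from 52020706 to 52038482 with no exon base in common with a counted gene. Epsilon-sarcoglycan (SGCE), the form found widely outside muscle, had 714 and 943 reads, or 50.1 and 47.8 CPM. Its log2 ratio was -0.066 (-0.21 to 0.076).

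SGCE (ENSG00000127990) lies on the minus strand of chromosome 7, and the table places it from 94585230 to 94656209. Its neighbour PEG10, an imprinted gene derived from a retrotransposon, runs the other way from a start 116 bases beyond the end of that span. PEG10 had 541 reads in the vector control and 2763 in PRMT5 overexpression, or 37.9 and 140 CPM. Its log2 ratio was 1.88 (1.75 to 2.02), beside -0.066 for SGCE across this shared promoter region. In GENCODE release 29 the SGCE gene is longer, from 94524204 to 94656572, and 219 of its exon bases lie in exons of PEG10. The sum of both genes had a log2 ratio of 1.09. The spans of the deposited table do not overlap, and CASD1, on the other side of SGCE, was at -0.077.

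Other sarcoglycans were at or near 0 reads. SGCA, which is confined largely to striated muscle, had 0 reads in both libraries. A count of 0 allows up to 3 reads, or 0.210 and 0.152 CPM. SGCD had 3 and 0 reads and SGCZ 4 and 4, which is too few for a ratio. Sarcospan (SSPN), a tetraspanin-like partner of the sarcoglycans, was at -1.09 (-1.77 to -0.48) from 55 and 35 reads. It was the only gene of these 5 past the floor, and it shares exon bases with BHLHE41. The sum of that pair was at -0.62. SGCA and SGCD were named after their values were seen.

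Utrophin (UTRN), the actin-binding partner of dystroglycan outside muscle, was level. It had 504 and 700 reads, or 35.3 and 35.5 CPM, and a log2 ratio of 0.0068 (-0.16 to 0.17). UTRN (ENSG00000152818) covers chromosome 6 from 144285701 to 144853034 with no exon base in common with a counted gene. Dystrophin (DMD), named after its values were seen, had only 31 and 26 reads and a log2 ratio of -0.70 (-1.53 to 0.078). In merged-exon RPKM, UTRN stood at 2.44 and 2.41, and DMD at 0.116 and 0.0691.

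Of 17 other cytoplasmic partners, 12 were past the floor, 4 above 0 and 8 below, with a median of -0.062, and DMD was the only one past 1.5-fold. Plectin (PLEC), the cytolinker that binds beta-dystroglycan and hemidesmosomes, was at 0.18 from 10874 and 17043 reads. Caveolin 1 (CAV1) was at -0.048, from 9075 and 12133 reads. The syntrophin SNTB2, named after its values were seen, was at -0.085 from 2758 and 3594 reads. CAV3, the muscle caveolin, likewise named after its values were seen, had 0 reads in both libraries.

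Of 18 genes for extracellular ligands of dystroglycan, 12 were past the floor, 8 above 0 and 4 below, from -0.13 for LAMA1 to 0.23 for LAMB3, and 0 reached 1.5-fold. Among all genes that average at least 50 reads, 2.7% were 1.5-fold higher and 2.42% lower, so nothing particular to the ligands is read from 0 of 12. The median was 0.042. Agrin (AGRN), a heparan sulfate proteoglycan of basement membranes, had more reads than any other gene of the 8 pathway lists, 17810 and 25180, and was at 0.032. LAMA1 and LAMB3 were named after their values were seen.

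Other laminin receptors had a median of -0.050, with 4 of 10 above 0 and 6 below. CD151, the tetraspanin that associates with laminin-binding integrins, was at 139 CPM with the vector and 89.9 CPM in PRMT5 overexpression. Its log2 ratio was -0.63 (-0.73 to -0.54), but its exons overlap those of POLR2L and AP006621.1, and the sum of the 3 genes was at -0.24. ITGA1, named after its values were seen, was also at -0.63, and at -0.023 once summed with PELO, whose exons it shares. ITGA6, a subunit of the hemidesmosome integrin, was at -0.050 from 9687 and 12938 reads. RPSA, the ribosomal protein also described as a laminin receptor, was at 0.41, although 27.4% of its stretches of 50 bases occur in other genes such as RPSAP58.

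Genes for the cutting of dystroglycan had a median of 0.086 over 9 genes past the floor, 6 above 0 and 3 below. APH1A, a subunit of gamma-secretase, was at 0.26 from 1225 and 2022 reads. MMP2, one of the gelatinases that cut beta-dystroglycan, had 139 and 148 reads and was lowest at -0.37 (-0.72 to -0.032). MMP9, the other gelatinase, had 0 and 3 reads. Both were named after their values were seen.

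Over the 8 pathway lists together, 76 of 92 genes were past the floor. At least 1.5-fold higher were 0 of them, where 7.06% of all counted genes were, and 5 were at least 1.5-fold lower, where 5.33% of all counted genes were. These 5 were CD151, ITGA1, SSPN, DMD and MGAT5B. Among all genes that average at least 50 reads, the shares were 2.7% higher and 2.42% lower. Nothing particular to the pathway lists is read from these counts. The median was -0.014, and the highest log2 ratio was 0.50, for TMTC2, against 2.88 for DAG1. The summed level of the other 6 members was 234 CPM with the vector and 236 CPM in PRMT5 overexpression.

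**Figure D4:**
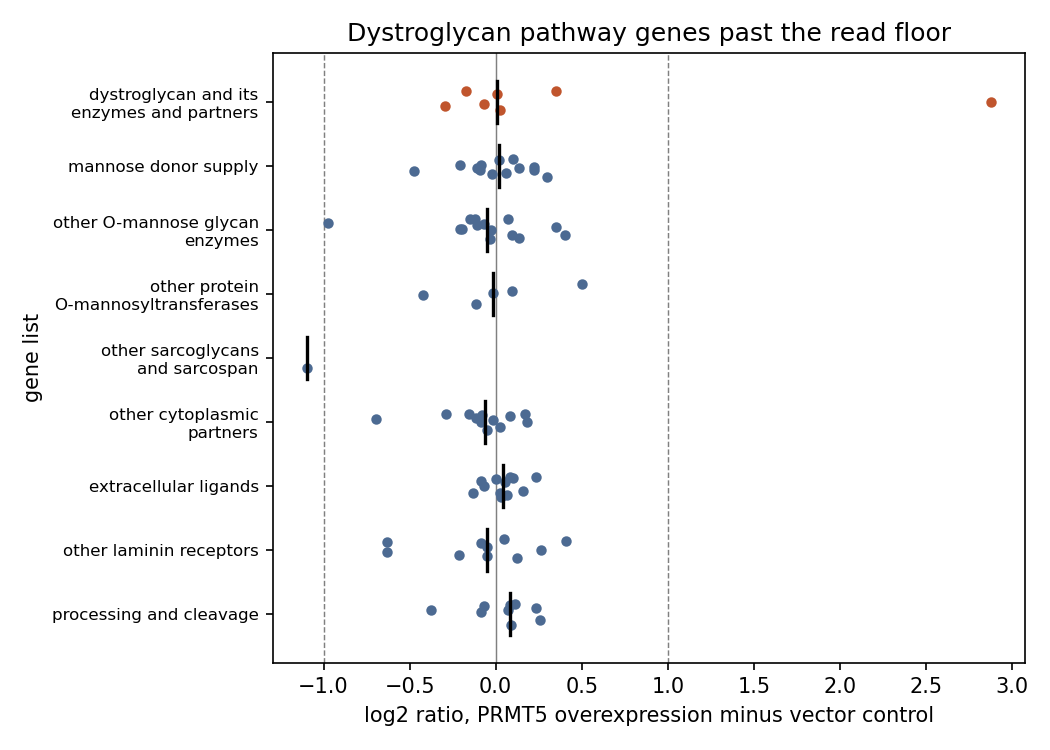
Log2 ratio (PRMT5 overexpression minus vector control) of each gene past the floor of 10 reads, by gene list; black bars are medians and dashed lines mark 2-fold. DAG1 at 2.88 lies apart from the 76 genes of the 8 pathway lists, which run from -1.09 to 0.50.

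Levels between genes can be compared only per length, and the length behind the deposited FPKM (fragments per kb of gene, scaled by the library total) matters here. In 92.3% of 11508 genes it equalled, within 1%, the sum of all distinct annotated exons, in which overlapping exons of different transcripts are counted again. For DAG1 this sum of 46 exons is 18550 bases, or 2.68 times the 6923 bases they cover. For UTRN it is 1.08 times and for SGCB 1.08 times, so the deposited FPKM of DAG1 is low beside theirs by construction.

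In deposited FPKM, DAG1 was the lowest of the 7 genes in the vector control, at 1.08, and the second highest in PRMT5 overexpression, at 7.77. SGCE was highest in both libraries, at 9.52 and 8.92. The length behind its FPKM is 5311 bases, 0.254 times its merged exons in GENCODE release 29, so its rank rests on unlike lengths. In merged-exon RPKM, DAG1 stood at 2.88 in the vector control, between SGCB at 3.56 and POMT2 at 2.58. In PRMT5 overexpression it stood at 20.8, above POMGNT1 at 9.78 and POMT1 at 8.49. POMT1 was above POMT2 on both scales and in both libraries, at 9.76 and 2.58 merged-exon RPKM in the vector control. SGCE has no value on the second scale because its gene model in the table differs from that in GENCODE release 29.

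**Figure D5:**
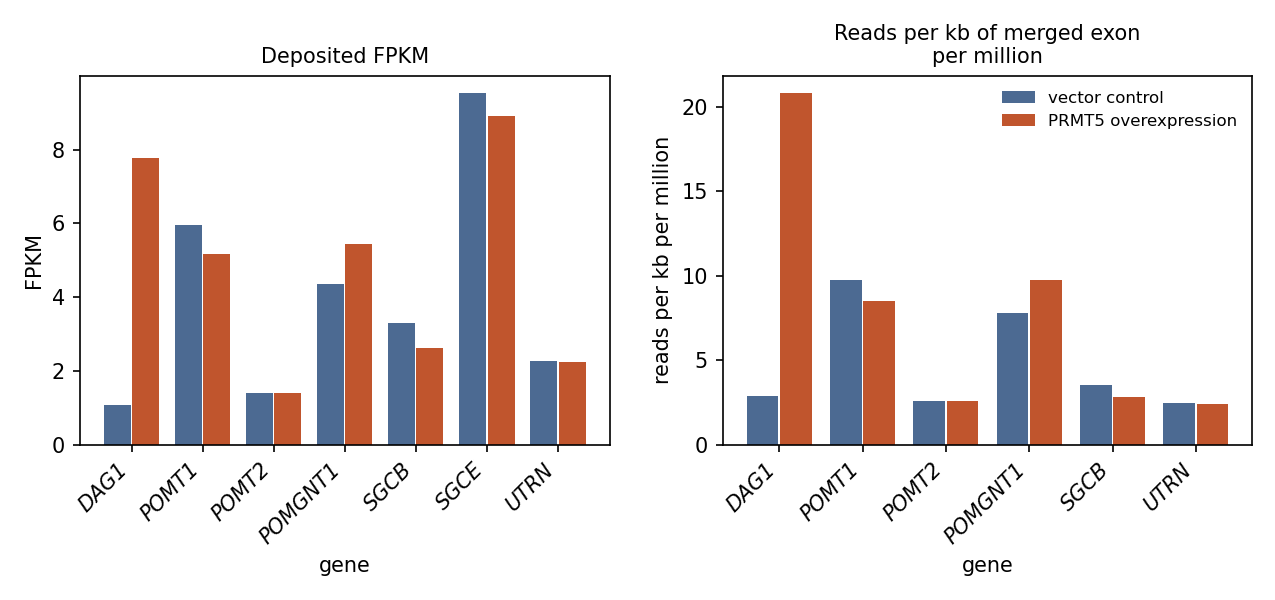
Levels per length of the members in both libraries as deposited FPKM (left, 7 genes) and as merged-exon RPKM (right, the 6 genes whose span is the same in GENCODE release 29). DAG1 in PRMT5 overexpression is second to SGCE at 7.77 FPKM on the left and highest at 20.8 on the right. SGCE on the left rests on a shorter gene model than that of GENCODE release 29.

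All 10 squamous and epithelial markers were present in both libraries, between 223 and 5077 CPM, with a summed level of 14278 and 15166 CPM. Of 10 muscle markers 5 were at 0 in both libraries, MYOD1, MYOG and ACTA1 among them, and their summed level was 66.8 and 75.4 CPM, nearly all of it from TNNT1. These 4 genes were named after their values were seen. Of 8 fibroblast markers 5 were past the floor and 3 at least 2-fold lower, beside 1.94% of all counted genes, with summed levels of 6.52 and 3.09 CPM. Those 3 rest on few reads, 26 and 7 for COL1A2, 11 and 2 for COL3A1, and 12 and 0 for DCN. Also past the floor were PDGFRB, at -0.24 from 25 and 29 reads, and MFAP5, at 0.32 from 12 and 21. The intervals of PDGFRB and MFAP5 included 0, and all 5 genes were named after their values were seen. The share of 1.94% is over genes of all read levels past the floor, so nothing is read from this count. The endothelial, leukocyte and Schwann or neural lists summed to 5.96, 21.6 and 28.8 CPM with the vector and to 4.46, 17.0 and 27.1 CPM in PRMT5 overexpression. The part of these markers in the ratios of the 7 genes was not tested.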

How the data were processed

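Polyadenylated RNA of 2 groups of Tu212 cells was sequenced, with 1 library per group, grouped by the genotype in the labels. The authors deposited raw counts and FPKM per gene. CASAVA 1.8, HISAT2 2.1.0, StringTie 1.3.4b and edgeR appear per the submitters' processing notes, with no role given, beside the builds GRCh38 and hg38. The use of strand in counting is not given in the sources used.

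Counts were summed by symbol and scaled by TMM on genes past a floor of 10 reads in either library (edgeR 4.0.16, R 4.3.3). Log2 ratios are of PRMT5 overexpression over vector control, with a prior count of 1, and intervals are exact binomial ones. No test was run, because each group has 1 library and genes are not replicates. The members and lists were chosen with earlier results of these data known. All 145 list entries matched, 1 by an older symbol.

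Named were the members, PRMT5, list genes at 5 CPM or more and 1.5-fold, the 2 highest per list by CPM, genes that share exon bases with a member, nearest genes, and the 5 ratios nearest DAG1. A few named genes are not reported here. Other names are marked as chosen after their values were seen. Exon sharing (partners with 10 or more reads, either strand) and shared sequence (stretches of 50 bases every 10 bases of the longest transcript, against other genes) come from GENCODE release 29. A sum over exon-sharing genes mostly follows the gene with the most reads. Promoter sequences are from RefSeq. On simulated data with 17777 genes of this comparison, intervals held the true ratio for 94.2% of 191 changed genes. The simulated reads were Poisson draws with counting error only, so this coverage says nothing about variation between libraries. Other steps ran in Python 3.11.15 (scipy 1.17.1, numpy 2.4.6, matplotlib 3.10.9, pandas 2.3.3).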

Additional observations from a re-analysis of the deposited data

How the results depend on the processing

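Ratios were recalculated with size factors from DESeq2 1.42.0, total counts, prior counts of 0.1 and 5, deposited FPKM with a pseudocount of 1 and sums with exon-sharing genes. Of 39 recalculated ratios of the members, 37 stayed within their counting intervals. The exceptions were DAG1 at 2.08 with FPKM, where a pseudocount of 1 shrinks a gene at 1.08 FPKM by construction, and SGCE at 1.09 summed with PEG10. Of 56 recalculated list medians, including no floor and a floor of 50 reads, 55 stayed between the medians of their genes' lower and upper interval bounds, and the sarcospan value became -0.23 with FPKM.

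At 2-fold, 516 genes were higher and 344 lower. A prior count of 5 gave 267 and 227, FPKM gave 75 and 54, leaving out the floor gave 2145 and 2872, a floor of 50 reads gave 136 and 118, and protein-coding genes alone gave 238 and 218. At 1.5-fold, in place of 1255 and 947, FPKM gave 326 and 223, leaving out the floor 4917 and 4346, a floor of 50 reads 442 and 348, and protein-coding genes alone 571 and 601. Narrower sets hold fewer genes by construction. The cause of the other changes was not tested.

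In place of deposited FPKM, merged-exon RPKM values were, in the vector control and PRMT5 overexpression, 2.88 and 20.8 for DAG1, 9.76 and 8.49 for POMT1, 2.58 and 2.57 for POMT2, and 7.82 and 9.78 for POMGNT1. UTRN went from 2.27 to 2.44 in the vector control and from 2.24 to 2.41 in PRMT5 overexpression, by the same length factor. No paired analysis was possible because there is a single library per group.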

Other observations

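Nitric oxide synthase 1 (NOS1), which syntrophins anchor to the dystrophin complex in muscle, had 912 reads in the vector control and 1338 in PRMT5 overexpression. The log2 ratio was 0.086, with a 95% counting interval from -0.037 to 0.21. NOS1 shares no exon base with a counted gene, and 0.0817% of its stretches of 50 bases occur in other genes. It was chosen after its values were seen.

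MPDU1, which is needed for the use of dolichol phosphate mannose, had the lowest ratio of the mannose donor genes, from 297 and 295 reads. Its log2 ratio was -0.48 (-0.71 to -0.24). MPDU1 shares exon bases with 3 counted genes, among them SOX15 and FXR2, and the sum was at 0.063. PMM2, a phosphomannomutase, had the highest ratio of that list at 0.30, from 425 and 723 reads, and was at 0.21 once summed with its exon-sharing genes. BCAM, the Lutheran receptor for laminin alpha 5, was at 0.26 from 2977 and 4936 reads (0.20 to 0.33). These genes were chosen after their values were seen.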
